A study of Homo sapiens with 8 samples.

Results

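Human 293T cells exposed to 5-NA were compared directly with 293T cells exposed to CBU-028, each compound at 10 µM for 10 h, over all 54675 probe sets of the Affymetrix HG-U133 Plus 2.0 expression array. 5-NA is 5-nitrofuryl-acrolein, which corresponds to the nitrofuran-containing portion of Eeyarestatin I (EerI), an inhibitor of the degradation of misfolded proteins of the endoplasmic reticulum. CBU-028 is a further compound of the same study, given here by its code name. The comparison asks where the transcriptional responses to the 2 compounds differ when dose and time are matched. 4 of the 8 arrays of the series enter it directly, 2 with 5-NA and 2 with CBU-028. The 2 arrays of control cells showed whether a gene that differed between the compounds had risen or fallen against control. They also entered the estimate of the spread on which the p-values of the direct comparison rest. The 2 arrays of cells given EerI entered that estimate and the means by which probe sets were chosen, but none of the differences. All arrays carry RNA of 293T cells, derived from human embryonic kidney and expressing the SV40 large T antigen, a viral protein that binds p53. Whether the control cells received solvent is not stated, and the labels do not say whether the duplicates came from separate cultures, although a legend of the study speaks of a biological replicate, so the p-values measure only the spread between these samples, which may be technical. The sample titles of the 5-NA arrays carry the number 214, which the study's compound list gives to another compound, CBU-029, while the source, description and treatment labels of the same samples name 5-NA. Every 5-NA value given here rests on those latter labels.

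The endoplasmic reticulum (ER) folds secreted and membrane proteins, and misfolded ones are drawn back into the cytosol by the ATPase p97, encoded by VCP, and degraded by the proteasome, a process known as ER-associated degradation (ERAD). A load of misfolded protein in the ER starts the unfolded protein response, which has an arm through the kinase PERK and the transcription factor ATF4, an arm through IRE1 and XBP1, and an arm through ATF6, the last 2 acting mainly on chaperones and ERAD factors. ATF4 is also reached by other kinases that sense a lack of amino acids, haem deficiency or viral RNA, so that its target genes are known as the integrated stress response. Misfolded protein in the cytosol releases the transcription factor HSF1, which drives the heat shock genes, and reactive compounds that modify KEAP1 release NRF2, which drives antioxidant genes such as HMOX1 and GCLM.

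Values are log2 intensities after robust multi-array averaging (RMA), and differences are 5-NA minus CBU-028 on the log2 scale with their standard errors from limma. A gene was said to differ where the Benjamini-Hochberg adjusted p over all probe sets was below 0.05, and a gene's values are those of its brightest probe set by the mean over all arrays. The duplicate arrays correlated at 0.9974 for 5-NA, 0.9953 for CBU-028 and 0.9984 for control, and the residual SD was 0.119, 0.163 and 0.0921 in this order. Array medians lay between 6.894 and 6.929. VIM (13.7 to 13.8) and NEFL (13.1 to 13.6), which 293T cells are known to express, were high on every array, while the leukocyte gene PTPRC (4.4 to 4.86) and the liver gene ALB (4.75 to 5.27) were low. In bulk RNA, fewer cells expressing a gene and less of its RNA per cell cannot be told apart.

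Genes higher with 5-NA than with CBU-028 included heat shock, immediate early, MAP kinase feedback, p53-responsive, developmental and histone genes, and most of the measured ATF4 targets were lower with 5-NA. The gene lists used here were chosen with earlier results of these data known, so their counts describe these arrays and are no independent support. In all, 116 probe sets were at least 2-fold higher with 5-NA (0.212% of those tested) and 43 at least 2-fold lower (0.0786%). By adjusted p alone, 3014 probe sets were higher (5.51%) and 2785 lower (5.09%). Counted by gene, 59 of 19775 genes were at least 2-fold higher (0.298%) and 18 at least 2-fold lower (0.091%), within 1279 higher (6.47%) and 1450 lower (7.33%) by adjusted p alone. Most of the transcriptome differed little: the median absolute difference over all probe sets was 0.118, and for 53936 probe sets (98.6%) the 95% confidence interval of the difference lay within 2-fold either way. The fit with every array rested on the spread of all 4 groups. Without replicate 2 of 5-NA the counts by adjusted p alone fell to 1406 higher and 1222 lower, and without replicate 1 of 5-NA to 1457 and 1297. The count of probe sets at least 2-fold lower was 25 without replicate 1 of CBU-028 and 106 without replicate 2.

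**Figure D1:**
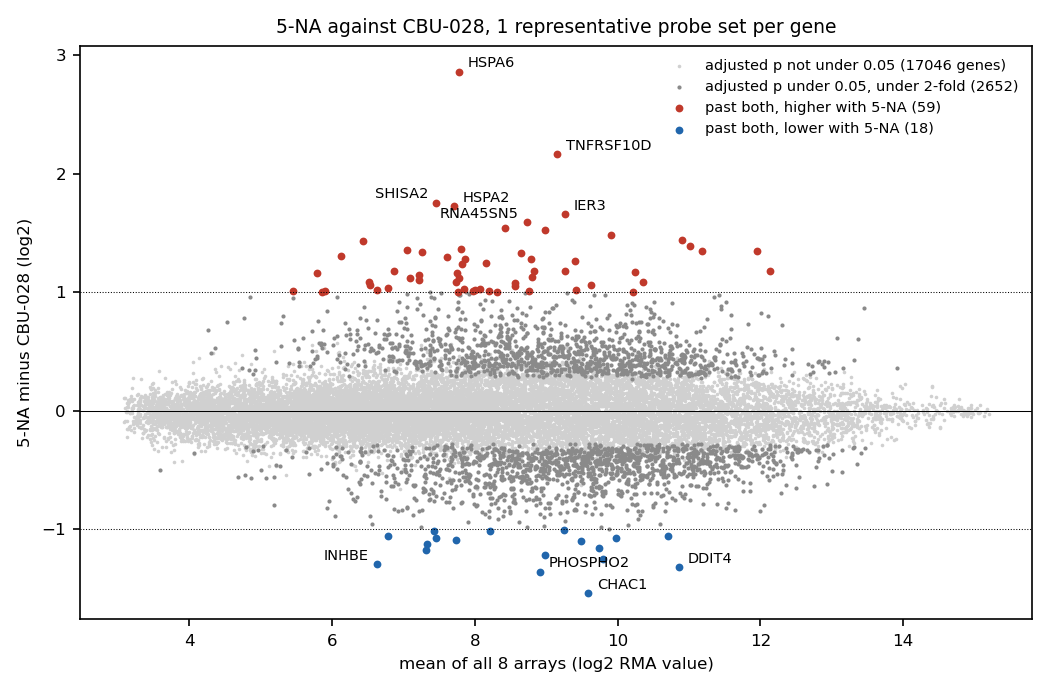
Difference between 5-NA and CBU-028 for the brightest probe set of every gene (vertical axis, log2, 5-NA minus CBU-028) against its mean over the 8 arrays (horizontal axis, log2 RMA value). Coloured points are the 59 genes at least 2-fold higher and the 18 at least 2-fold lower with 5-NA at an adjusted p below 0.05. Most other points lie close to 0.

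Set against control, the probe sets that separated the compounds fell into several kinds. Of the 116 that were at least 2-fold higher with 5-NA, 59 had been raised by 5-NA and did not pass with CBU-028, 18 had been raised by both compounds, and 20 had been lowered by CBU-028 and did not pass with 5-NA. A further 18 were raised by 5-NA and lowered by CBU-028, and the last 1 was lowered by both. Of the 43 lower with 5-NA, 18 had been raised by CBU-028 and did not pass with 5-NA, 8 had been raised by both, and 11 had been lowered by 5-NA and did not pass with CBU-028. A further 3 were lowered by 5-NA and raised by CBU-028, and 3 passed against control with neither compound. Both sets of differences from control use the same 2 control arrays. For all 159 of these probe sets the arrays of the compounds did not overlap, which also held for 45.6% of all probe sets and 50.3% of genes. Across all probe sets 5-NA raised 4000 (7.32%) and lowered 4318 (7.9%) against control, and CBU-028 raised 2403 (4.4%) and lowered 2882 (5.27%).

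**Figure D2:**
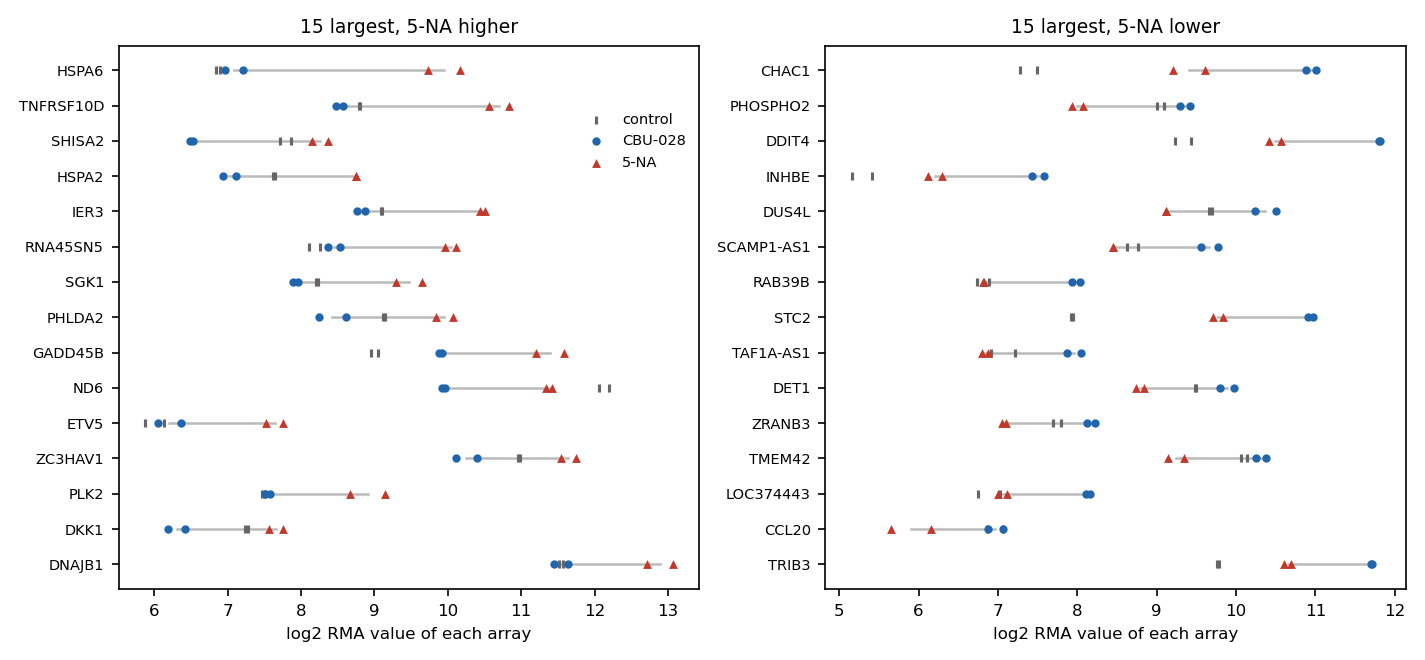
Log2 RMA values on each 5-NA, CBU-028 and control array for the genes with the largest differences each way, 15 higher and 15 lower with 5-NA. Points are single arrays, 2 per group, and grey lines join the means of the compounds; the 5-NA and CBU-028 points do not overlap for any of these 30 genes, while the control points lie with either compound, between them or outside both.

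HSPA6 showed the largest difference of all genes. This inducible member of the Hsp70 family of cytosolic chaperones, a gene that is silent in most unstressed cells, read 10.16 and 9.73 with 5-NA, 6.96 and 7.20 with CBU-028 and 6.84 and 6.90 in control cells. The 5-NA arrays stood far above the others, and the CBU-028 arrays lay just above control. The difference was 2.86 ± 0.14 (SE, n = 2 arrays per group), or 7.28-fold, with an adjusted p of 0.000116. A second probe set for HSPA6 gave 1.71. The promoters of HSPA6 and of DNAJB1, which encodes the Hsp40 partner of Hsp70, are shown because they carry the heat shock element that HSF1 binds, in an inverted-repeat form written GAANNTTC. Sequences are from RefSeq on GRCh38.p14, read 5′ to 3′ on the gene's strand up to the transcription start, at chr1:161524350-161524539 on the plus strand for HSPA6 and chr19:14518398-14518487 on the minus strand for DNAJB1. Capitals mark each match to GAANNTTC, 180 and 69 bases before the start of HSPA6 and 77 and 47 bases before that of DNAJB1. DNAJB1 has further RefSeq starts, and the one with the most matches before it is shown. At another of its starts the window held no match.
HSPA6: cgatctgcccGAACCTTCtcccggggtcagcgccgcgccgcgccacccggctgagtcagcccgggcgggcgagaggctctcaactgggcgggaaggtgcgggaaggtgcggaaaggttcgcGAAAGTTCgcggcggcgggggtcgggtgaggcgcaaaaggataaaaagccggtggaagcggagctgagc
DNAJB1: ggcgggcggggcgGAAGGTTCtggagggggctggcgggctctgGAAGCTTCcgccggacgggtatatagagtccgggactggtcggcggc

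Of the 18 heat shock genes measured, 7 were higher with 5-NA and the other 11 did not pass the test, against 6.47% of all genes higher. The median difference of the list was 0.22, against -0.02 over all genes. DNAJB1 read 13.07 and 12.72 with 5-NA, 11.64 and 11.45 with CBU-028, and 11.51 and 11.57 in control cells. The CBU-028 arrays of DNAJB1 overlapped the control arrays, and the 5-NA arrays were above both, by 1.35 ± 0.12 over CBU-028 (adjusted p 0.000753). BAG3, a co-chaperone that couples Hsp70 to autophagy, read 12.10 and 12.09 with 5-NA against 10.71 and 10.78 with CBU-028 and 11.01 and 10.98 in control cells, a difference of 1.35 ± 0.08 (adjusted p 0.000183). Here the CBU-028 arrays lay below control without passing the test against control (-0.25). HSPA1L, a further Hsp70 gene, differed by 1.33 ± 0.11, though its other probe set gave 0.24 with an adjusted p of 0.087, and HSPA1L lies beside near-identical Hsp70 genes with which its probes may share signal.

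ZFAND2A, which encodes an arsenite-inducible protein that associates with the proteasome, was raised by both compounds and more by 5-NA. It read 11.92 and 11.71 with 5-NA, 11.11 and 11.10 with CBU-028 and 9.31 and 9.27 in control cells, so that all 4 treated arrays lay above control and the compounds differed by 0.71 ± 0.09. The smaller differences of HSPH1 (0.49) and HSPB1 (0.44), an Hsp110 and a small heat shock protein, passed the test, but not that of HSPH1 without replicate 1 of 5-NA (0.44, adjusted p 0.0576) nor that of HSPB1 without replicate 2 (0.37, adjusted p 0.0908). DNAJA1 missed the test at 0.33 (95% interval 0.11 to 0.55, adjusted p 0.0648). HSPA2, an Hsp70 gene named for the size of its difference and not a member of the list, read 8.75 and 8.75 with 5-NA, 6.93 and 7.11 with CBU-028 and 7.65 and 7.62 in control cells, the control arrays lying between the compounds, and differed by 1.73 ± 0.09. In the promoter windows, which run from 250 bases before to 50 after each RefSeq start, GAANNTTC was found for 9 of 17 heat shock genes (52.9%) against 7.39% of the 15384 genes with a window. It was present in 4 of the 7 members higher with 5-NA and in 5 of the 10 that did not pass.

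**Figure D3:**
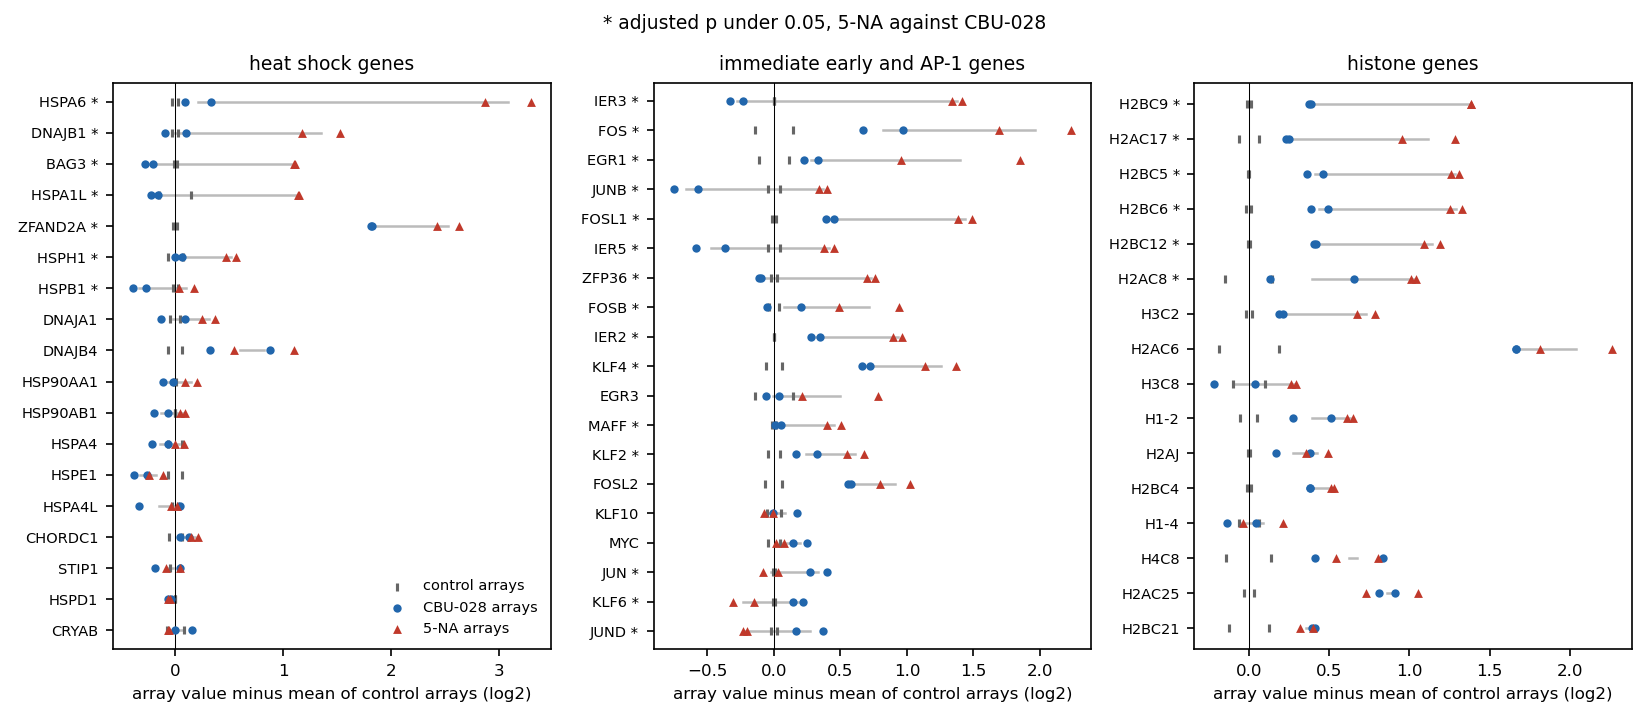
Log2 value of each 5-NA, CBU-028 and control array minus the mean of the control arrays (horizontal axis) for the measured heat shock, immediate early and histone genes. Points are single arrays, 2 per group, grey lines join the means of the compounds, and asterisks mark an adjusted p below 0.05; HSPA6, DNAJB1, IER3 and H2BC9 stand higher with 5-NA than on any other array shown, while CBU-028 lies near control for DNAJB1 and above it for H2BC9.

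Immediate early genes, which are transcribed within minutes of growth factor or stress signals through MAP kinases, were mostly higher with 5-NA. Of 19 measured, 12 were higher and 3 lower, against 6.47% and 7.33% of all genes, with a median of 0.56. Without replicate 1 of 5-NA, 8 passed as higher and the 3 lower ones did not pass. IER3, an early-response gene that affects apoptosis, read 10.51 and 10.44 with 5-NA, 8.76 and 8.87 with CBU-028 and 9.10 and 9.09 in control cells, a difference of 1.66 ± 0.09 (3.15-fold, adjusted p 0.000116). For IER3, 5-NA lay above control, and CBU-028 lay below control without passing the test against control (-0.28). FOS, a subunit of the AP-1 transcription factor, read 8.76 and 8.22 with 5-NA, 7.19 and 7.49 with CBU-028 and 6.67 and 6.38 in control cells. Its order was 5-NA, CBU-028, control without overlap, and the compounds differed by 1.15 ± 0.18 (adjusted p 0.00502). For EGR1, a zinc finger transcription factor, the 5-NA arrays were further apart from each other (8.50 and 7.61) than the CBU-028 arrays (6.98 and 6.88), and the difference of 1.12 ± 0.23 had an adjusted p of 0.0159. The other EGR1 probe sets gave 0.16 and 0.34 and did not pass.

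The AP-1 subunits did not move together. FOSL1 was higher with 5-NA by 1.02 ± 0.08 and JUNB by 1.03 ± 0.09, whereas JUN was lower by 0.36 (interval -0.55 to -0.17, adjusted p 0.0281). JUN read 13.15 and 13.26 with 5-NA, 13.49 and 13.63 with CBU-028 and 13.22 and 13.24 in control cells, and it lost its call without any single array other than replicate 1 of CBU-028 (adjusted p 0.0572 to 0.132). JUNB was raised by 5-NA (0.37) and lowered by CBU-028 (-0.66) against control, and so was IER5, an early-response gene known to act with HSF1 (0.41 and -0.48, differing by 0.89 ± 0.10 between the compounds). ZFP36, which destabilises cytokine mRNAs, was 0.83 higher. MAFF, a small Maf protein, differed by 0.42 at its brightest probe set (0.37 without replicate 1 of 5-NA, adjusted p 0.0637) and by 2.68 at its second one, which read 8.99 and 8.53 with 5-NA, 5.92 and 6.25 with CBU-028 and 5.03 and 4.71 in control cells. This second MAFF probe set was chosen after its values were seen. The AP-1 site TGANTCA lay in the promoter window of 1 of 14 immediate early genes with a window (7.14%), against 8.1% of all genes.

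Genes that feed back on MAP kinase signalling were higher with 5-NA for 8 of 14 measured and lower for 1. The shares over all genes were 6.47% and 7.33%. The median of the list was 0.36. Without replicate 1 of 5-NA, 1 member passed as higher, and without replicate 2, 4 did. DUSP5, a nuclear phosphatase that inactivates ERK, read 8.89 and 8.45 with 5-NA, 7.53 and 7.57 with CBU-028 and 7.58 and 7.49 in control cells. CBU-028 and control overlapped for DUSP5, and 5-NA stood above both by 1.12 ± 0.13 (adjusted p 0.00166). DUSP16, a phosphatase that acts mainly on JNK and p38, went the other way: it was lower with 5-NA by 0.50 and lay above control with CBU-028 (0.59). GADD45B, a stress gene that activates a MAP kinase kinase kinase, was raised by both compounds. It read 11.58 and 11.20 with 5-NA, 9.88 and 9.93 with CBU-028 and 9.05 and 8.96 in control cells, a difference of 1.49 ± 0.12 (adjusted p 0.000594), with 1.37 and 1.31 at 2 of its other probe sets and 0.29 (adjusted p 0.149) at the third. The other 6 measured genes of the GADD45 family and stress kinases did not pass the test, although GADD45G did without replicate 2 of CBU-028 (0.37, adjusted p 0.0343). GADD45A, at 1.58 and 1.60 above control with 5-NA and CBU-028, differed between them by -0.02 (interval -0.20 to 0.15). SGK1, a kinase induced by serum and glucocorticoids and outside these lists, was 1.55 ± 0.12 higher with 5-NA, reading 9.65 and 9.29 against 7.96 and 7.89, with control at 8.23 and 8.21.

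Of 18 p53-responsive genes measured, 8 were higher and 1 lower with 5-NA, against 6.47% and 7.33% of all genes. The median was 0.11. When either 5-NA array was left out, 5 passed as higher. The lower one, DDB2, passed only with all arrays or without replicate 2 of CBU-028. TNFRSF10D, a decoy receptor for the death ligand TRAIL, had the second largest difference of all genes. It read 10.83 and 10.56 with 5-NA, 8.58 and 8.48 with CBU-028 and 8.80 and 8.79 in control cells. The 5-NA arrays were far above the rest, and CBU-028 lay slightly below control without passing the test against control (-0.27). The compounds differed by 2.17 ± 0.10 (4.49-fold, adjusted p 0.000116), with 0.99 at the other TNFRSF10D probe set. PLK2, a Polo-like kinase induced by stress, read 9.15 and 8.67 with 5-NA, 7.58 and 7.51 with CBU-028 and 7.51 and 7.47 in control cells (1.37 ± 0.14). CDKN1A, the cell cycle inhibitor p21, was raised by both compounds, reading 11.38 and 11.13 with 5-NA, 10.39 and 10.45 with CBU-028 and 10.04 and 10.06 in control cells. Its difference between the compounds was 0.83 ± 0.09 (adjusted p 0.00162). MDM2, the ubiquitin ligase of p53, missed the test at -0.30 (interval -0.52 to -0.08, adjusted p 0.0922), and 3 of its 9 other probe sets had the opposite sign, none of the 9 passing. Without replicate 2 of CBU-028 MDM2 passed as lower (-0.43, adjusted p 0.021), as 1 of 3 lower members.

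The BCL2 family, which controls the release of cytochrome c in apoptosis, was divided. With 5-NA, 4 of 15 measured members were higher and 3 lower, against 6.47% and 7.33% of all genes. Among the pro-apoptotic BH3-only genes, BIK was higher with 5-NA by 1.01 ± 0.10 and BCL2L11, encoding BIM, by 0.89 ± 0.07. BCL2L11 read 10.93 and 10.93 with 5-NA, 10.05 and 10.03 with CBU-028 and 9.96 and 9.91 in control cells, so that CBU-028 stayed near control. HRK was lower with 5-NA by 0.67 ± 0.09, reading 8.49 and 8.54 against 9.16 and 9.22 with CBU-028, with control at 8.49 and 8.29. PMAIP1, which encodes NOXA, was raised by both compounds and read 12.88 and 12.62 with 5-NA, 13.33 and 13.12 with CBU-028 and 12.17 and 12.18 in control cells. The PMAIP1 difference of -0.47 ± 0.11 passed with all arrays (adjusted p 0.0239), but not without replicate 1 of CBU-028 (-0.37, adjusted p 0.0773) or replicate 2 of 5-NA (-0.35, adjusted p 0.141). Of the survival genes, MCL1 was higher with 5-NA by 0.48 and BCL2L2 was lower by 0.72.

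Histone genes, most of them replication-dependent, were higher with 5-NA for 6 of the 16 measured, against 6.47% of all genes. The other 10 did not pass, and the median was 0.37. Over control 14 of the 16 were raised by 5-NA and 9 by CBU-028, against 7.87% and 5.47% of all genes. H2BC9 read 9.29 and 9.30 with 5-NA, 8.29 and 8.30 with CBU-028 and 7.93 and 7.90 in control cells. The 3 groups of H2BC9 did not overlap, and the compounds differed by 1.002 ± 0.09 (adjusted p 0.000899). H2AC17 (0.88), H2BC5 (0.87), H2BC6 (0.85) and H2BC12 (0.73) followed. These genes are near-identical to one another in sequence, so probe sets may share signal between them. The promoter of H2BC12 is shown because it holds several CCAAT boxes, the element to which NF-Y binds in histone promoters. It lies at chr6:27146859-27147078 on the minus strand of GRCh38.p14 and ends at the transcription start. Capitals mark CCAAT on either strand, at 6 places.
H2BC12: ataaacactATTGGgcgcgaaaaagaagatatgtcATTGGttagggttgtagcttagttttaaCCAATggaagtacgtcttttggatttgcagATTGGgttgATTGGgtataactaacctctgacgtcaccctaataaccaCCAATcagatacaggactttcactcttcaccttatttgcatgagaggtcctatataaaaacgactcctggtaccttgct
CCAAT was found in the windows of 15 of 16 histone genes (93.8%), against 41.7% of all genes. All 6 members higher with 5-NA and 9 of the 10 that did not pass held it.

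RNA45SN5, the ribosomal RNA precursor, which like most of these histone mRNAs lacks a usual poly(A) tail, was among the larger differences. It read 9.96 and 10.12 with 5-NA, 8.37 and 8.53 with CBU-028 and 8.26 and 8.11 in control cells, a difference of 1.60 ± 0.10 (adjusted p 0.000382). The array's 3 control probe sets along 28S ribosomal RNA gave differences of 1.03 at the 5′ end, 0.85 in the middle and 0.26 at the 3′ end, the last with an adjusted p of 0.0882. Its 3 control probe sets along 18S ribosomal RNA gave 0.07 at the 3′ end, 0.03 in the middle and -0.07 at the 5′ end. None of these passed (adjusted p 0.818 to 0.924). Against control, the 3′ 18S probe set was higher by 1.05 with 5-NA and 0.98 with CBU-028, and the middle one by 0.69 and 0.66, all passing. The 5′ one was higher by 0.52 and 0.59 and did not pass. Of 24 genes of ribosome assembly and RNA polymerase I, only POLR1E passed, lower by 0.39, and it passed without replicate 1 of 5-NA but not without any other array (adjusted p 0.0558 to 0.223). Of all genes, 6.47% were higher with 5-NA and 7.33% lower. The labels give the labelling only as the manufacturer's standard protocol. The difference between 3′ and 5′ ACTB probe sets, a measure of RNA integrity and labelling length, was 0.178 and 0.363 on the 5-NA arrays, 0.0743 and 0.196 with CBU-028 and 0.147 and 0.13 in control cells. The part of RNA quality in the differences of the ribosomal RNA and histone probe sets was not tested.

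The ATF4 targets held more genes lower with 5-NA than any other of the 24 lists. Most had been raised against control by both compounds. Of the 30 measured, 24 passed as raised by 5-NA (median difference from control 0.84) and 29 as raised by CBU-028 (median 1.42), against 7.87% and 5.47% of all genes. Directly compared, 19 of the 30 were lower with 5-NA and 2 were higher, against 7.33% and 6.47% of all genes. The median was -0.58. Without replicate 1 of 5-NA, 15 members were lower. CHAC1, a glutathione-degrading enzyme induced late in this response, had the largest difference of any gene lower with 5-NA. It read 9.61 and 9.21 with 5-NA, 11.01 and 10.88 with CBU-028 and 7.28 and 7.49 in control cells. The 3 groups of CHAC1 were well apart, with 5-NA between control and CBU-028, and the difference between the compounds was -1.54 ± 0.13 (2.9-fold, adjusted p 0.000744).

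The promoters of CHAC1 and of 2 further members, JDP2, an AP-1 repressor, and FGF21, a secreted metabolic hormone, are shown because each holds the composite element TGATGCAA that ATF4 binds together with C/EBP proteins. They are RefSeq sequences on GRCh38.p14 read 5′ to 3′ on the plus strand, at chr15:40953251-40953470, chr14:75427962-75428021 and chr19:48755464-48755523. Capitals mark the element on either strand, 209, 16 and 54 bases before the transcription start. JDP2 has further RefSeq starts whose windows held no match, and the start with a match is shown.
CHAC1: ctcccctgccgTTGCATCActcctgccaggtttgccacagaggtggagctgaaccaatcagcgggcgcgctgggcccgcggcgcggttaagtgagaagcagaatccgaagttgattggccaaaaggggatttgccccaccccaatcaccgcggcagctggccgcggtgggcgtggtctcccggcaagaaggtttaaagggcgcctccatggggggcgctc
JDP2: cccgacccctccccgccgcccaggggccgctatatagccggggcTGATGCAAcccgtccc
FGF21: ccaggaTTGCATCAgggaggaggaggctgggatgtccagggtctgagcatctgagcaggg
TGATGCAA was present in the promoter window of 4 of 24 list members with a window (16.7%) and in 0.936% of all genes. It was held by 3 of the 16 members lower with 5-NA (18.8%) and by 1 of the 6 that did not pass (16.7%). JDP2 read 8.20 and 8.38 with 5-NA, 9.17 and 9.23 with CBU-028 and 6.96 and 6.91 in control cells, in the same order as CHAC1, and differed by -0.91 ± 0.09, with -0.33 (adjusted p 0.0818) at its other probe set. FGF21 differed by -0.57 (interval -0.84 to -0.29, adjusted p 0.0193), and it did not pass without replicate 1 of 5-NA (adjusted p 0.093), replicate 2 of 5-NA (0.101) or replicate 2 of CBU-028 (0.0542).

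The other members lower with 5-NA included signalling regulators, transcription factors and enzymes. DDIT4, an inhibitor of mTORC1, read 10.56 and 10.41 with 5-NA, 11.80 and 11.81 with CBU-028 and 9.44 and 9.24 in control cells, a difference of -1.32 ± 0.09 (adjusted p 0.000431). STC2, a secreted glycoprotein, read 9.84 and 9.72 with 5-NA, 10.91 and 10.97 with CBU-028 and 7.94 and 7.92 in control cells (-1.16 ± 0.08). TRIB3, a pseudokinase that restrains ATF4 and AKT, read 10.69 and 10.61 with 5-NA, 11.72 and 11.70 with CBU-028 and 9.77 and 9.79 in control cells (-1.06 ± 0.08). In each of these genes the 5-NA arrays lay between control and CBU-028 without overlap, and INHBE, an activin subunit, had the same order (-1.29 ± 0.11). Among transcription factors, ATF3 was lower by 0.82 ± 0.11 and DDIT3, encoding the pro-apoptotic factor CHOP, by 0.81 ± 0.10. DDIT3 read 10.16 and 9.92 with 5-NA, 10.94 and 10.77 with CBU-028 and 8.50 and 8.49 in control cells. Enzymes of serine, cysteine and asparagine synthesis were in the same direction, with PSPH at -0.84, CTH at -0.81 and ASNS at -0.63, and so was PCK2 (-0.87), a mitochondrial enzyme of gluconeogenesis.

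Not all members followed. PPP1R15A, which encodes GADD34, the phosphatase subunit that reverses the block of translation by PERK, was raised by both compounds and was 0.55 higher with 5-NA (interval 0.33 to 0.77, adjusted p 0.00895), or 0.45 without replicate 1 of 5-NA (adjusted p 0.0608). ATF5, the other member higher with 5-NA, differed by 0.35 and did not pass without replicate 1 of 5-NA or of CBU-028 or with any control or EerI array left out (adjusted p 0.0684 to 0.161). ATF4 itself read 13.78 and 13.60 with 5-NA, 13.90 and 13.81 with CBU-028 and 13.18 and 13.25 in control cells, and its difference of -0.17 did not pass (interval -0.37 to 0.04, adjusted p 0.318). SESN2, a stress-induced regulator of mTORC1, differed by 0.10 (interval -0.08 to 0.29) at 11.55 and 11.42 against 11.40 and 11.36, with control at 9.23 and 9.21. HERPUD1, a membrane protein of ERAD, differed by -0.17 (interval -0.40 to 0.05). The intervals of ATF4, SESN2 and HERPUD1 leave room for differences of at most a fraction of a log2 unit in either direction.

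**Figure D4:**
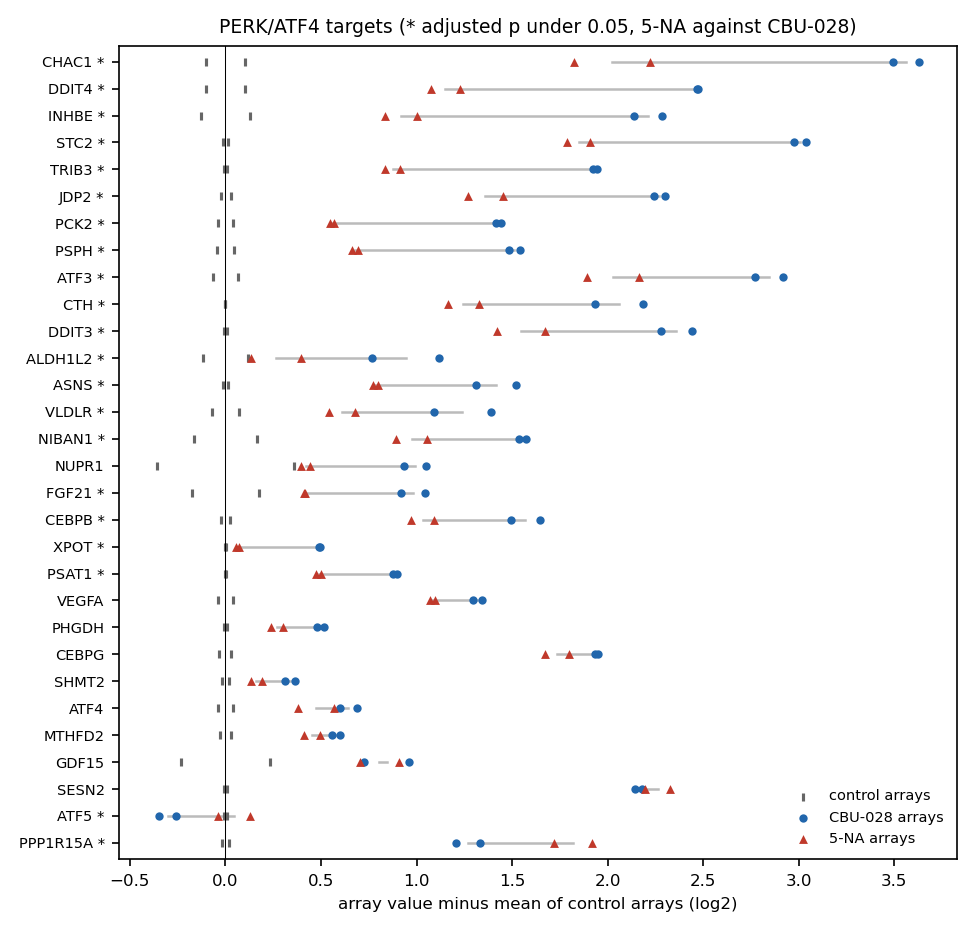
Log2 value of each 5-NA, CBU-028 and control array minus the mean of the control arrays (horizontal axis) for the 30 measured targets of the PERK and ATF4 arm. Points are single arrays, 2 per group, grey lines join the means of the compounds, and asterisks mark an adjusted p below 0.05; for CHAC1, DDIT4, STC2 and TRIB3 the 5-NA points lie between control and CBU-028, while for ATF4 and SESN2 both compounds lie close together above control.

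Genes that supply amino acids to translation, many of them also known ATF4 targets, were in part lower with 5-NA. Of 17 aminoacyl-tRNA synthetases measured, 9 were lower with 5-NA, against 7.33% of all genes, and the other 8 did not pass. Their median was -0.37. The count of lower synthetases was 2 without replicate 2 of 5-NA. Over control, 10 of the 17 were raised by CBU-028 and 2 by 5-NA, against 5.47% and 7.87% of all genes. AARS1, the alanyl-tRNA synthetase, read 10.55 and 10.62 with 5-NA, 11.32 and 11.36 with CBU-028 and 10.79 and 10.85 in control cells (-0.75 ± 0.08, adjusted p 0.00122). CBU-028 lay above control for AARS1, and the 5-NA arrays lay below it without passing the test against it. CARS1, the cysteinyl-tRNA synthetase, was raised by both compounds and was lower with 5-NA by 0.52. Of 14 amino acid transporters 5 were lower with 5-NA, a count that was 2 without replicate 2 of 5-NA. SLC7A11, the cystine importer that ATF4 and NRF2 both drive, read 10.79 and 10.71 with 5-NA, 11.63 and 11.55 with CBU-028 and 8.68 and 8.73 in control cells. Both compounds raised SLC7A11, CBU-028 by more, and they differed by -0.84 ± 0.08 (adjusted p 0.000899). SLC6A9, a glycine transporter, differed by -0.73 ± 0.10, whereas SLC7A5, the large neutral amino acid transporter, did not pass at 0.20 (interval -0.01 to 0.41).

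Of 23 ER chaperones and folding enzymes measured, 3 were higher with 5-NA and 2 lower, against 6.47% and 7.33% of all genes, with a median of 0.19, and the intervals of all 23 lay within 2-fold. HSPA5, which encodes BiP, the main Hsp70 of the ER and sensor of its folding load, read 13.73 and 13.59 with 5-NA, 13.10 and 13.01 with CBU-028 and 13.11 and 13.23 in control cells. CBU-028 did not pass against control for HSPA5 (-0.12), 5-NA did (0.49), and the compounds differed by 0.61 ± 0.09 (adjusted p 0.00397). DNAJB9, an ER Hsp40 induced by spliced XBP1, was 0.50 higher and HYOU1, an ER Hsp110, 0.48 higher. Without replicate 1 of 5-NA HYOU1 did not pass (0.38, adjusted p 0.101), nor did DNAJB9 (0.29, adjusted p 0.157), and DNAJB9 passed only with all arrays or without replicate 2 of 5-NA. XBP1 was lower with 5-NA by 0.39 at its brightest probe set and higher by 0.50 (adjusted p 0.027) at another, so it has no settled direction.

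Of the 20 ERAD genes measured VCP passed and the other 19 did not, and all 20 intervals lay within 2-fold. Of all genes, 6.47% were higher with 5-NA and 7.33% lower. VCP, the gene of p97 itself, read 12.05 and 11.95 with 5-NA, 11.66 and 11.54 with CBU-028 and 11.73 and 11.73 in control cells, a difference of 0.40 ± 0.08 (adjusted p 0.0157). Without replicate 1 of 5-NA it was 0.35 (adjusted p 0.0852). EDEM1, a lectin that delivers misfolded glycoproteins to ERAD, missed the test at 0.30 (adjusted p 0.0664). Without replicate 2 of CBU-028, 2 ERAD genes were lower, among them EDEM2 (-0.40, adjusted p 0.0466). Of 27 proteasome subunits PSMD12 was higher by 0.39 and PSMD4 lower by 0.30, and all 27 intervals lay within 2-fold. PSMD12 did not pass without replicate 1 of 5-NA (0.34, adjusted p 0.0908), and PSMD4 did not pass when any array was left out (adjusted p 0.0563 to 0.15).

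Of all genes, 6.47% were higher with 5-NA than with CBU-028 and 7.33% lower. Of 22 NRF2 targets measured, 10 were raised over control by 5-NA and 10 by CBU-028, against 7.87% and 5.47% of all genes. Between the compounds 3 were higher with 5-NA and 3 lower, with a median of 0.03, and without replicate 1 of 5-NA 1 was higher. HMOX1, the strongly inducible haem oxygenase, read 13.07 and 13.01 with 5-NA, 13.68 and 13.47 with CBU-028 and 9.82 and 9.86 in control cells. Both compounds stood more than 3 log2 units above control, and 5-NA was lower than CBU-028 by 0.53 ± 0.09 (adjusted p 0.00723). Without replicate 2 of 5-NA the difference was -0.50 with an adjusted p of 0.0534. MAFG, the small Maf partner of NRF2, was 0.68 ± 0.10 higher with 5-NA. GCLM, which encodes the modifier subunit of glutathione synthesis, read 12.57 and 12.66 with 5-NA, 12.55 and 12.45 with CBU-028 and 11.12 and 11.16 in control cells, and differed by 0.12 (interval -0.07 to 0.30). NQO1, a quinone reductase, differed by 0.11 (interval -0.08 to 0.29). Of 9 metallothionein and zinc export genes, which MTF1 drives, only the exporter SLC30A1 passed, higher by 0.44, and it did not pass without replicate 1 of 5-NA (0.36, adjusted p 0.0675). MT1H passed as lower without replicate 1 of CBU-028 (-0.40, adjusted p 0.0364).

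Among mitochondrially encoded transcripts ND6 stood apart. ND6, the only protein-coding gene on the light strand of the mitochondrial genome, read 11.42 and 11.33 with 5-NA, 9.92 and 9.96 with CBU-028 and 12.20 and 12.06 in control cells. Both compounds lay below control without overlap, CBU-028 by 2.19 and 5-NA by 0.76, and they differed by 1.44 ± 0.15 (adjusted p 0.00115). The other 6 measured mitochondrial genes did not pass and differed by -0.01 to 0.12. IFIT1, an interferon-induced protein that binds foreign RNA, had a like order of the 3 groups. It read 6.62 and 6.56 with 5-NA, 5.80 and 5.55 with CBU-028 and 8.05 and 8.17 in control cells, a difference of 0.92 ± 0.10 (adjusted p 0.00153). Of 20 interferon-induced genes 4 were higher with 5-NA and 2 lower, against 6.47% and 7.33% of all genes. Among the 2 lower was ISG15, a ubiquitin-like modifier, by 0.52. The 4 became 2 when either 5-NA array was left out, and the 2 lower ones became 1 with replicate 2 of 5-NA or any control or EerI array left out. Of 17 NF-kappaB regulators and targets, TNFAIP3, which encodes the feedback inhibitor A20, was higher by 0.45 and CCL20, a chemokine, was lower by 1.06 ± 0.16, reading 5.66 and 6.16 with 5-NA against 6.88 and 7.06 with CBU-028 and 7.06 and 6.86 in control cells. NFKBIA, the standard feedback target of NF-kappaB, differed by -0.10 and did not pass. In the fit on the 4 compared arrays TNFAIP3 did not pass (adjusted p 0.0632), and without replicate 2 of CBU-028 3 members of this list were higher.

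Among cell cycle genes, DNA replication and mitotic genes were taken apart. Of 25 DNA replication genes 8 were lower and 4 higher with 5-NA, against 7.33% and 6.47% of all genes. RFC4, a subunit of the clamp loader, read 11.44 and 11.50 with 5-NA, 12.36 and 12.26 with CBU-028 and 11.94 and 12.02 in control cells. Control lay between the compounds, which differed by -0.84 ± 0.08 (adjusted p 0.000931). RFC2 (-0.70) and the primase subunit PRIM1 (-0.59) were lower too. CCNE1, cyclin E1, which drives entry into S phase, was higher by 0.73 ± 0.09, reading 11.46 and 11.40 against 10.62 and 10.78, with control at 10.62 and 10.53, while its other probe set gave 0.17 and did not pass. Of 25 mitotic genes 7 were higher with 5-NA, with a median of 0.25, and the other 18 did not pass, and all 25 intervals lay within 2-fold. KIF20A, a mitotic kinesin, read 10.88 and 10.77 with 5-NA, 10.54 and 10.29 with CBU-028 and 11.46 and 11.52 in control cells (0.41 ± 0.10, adjusted p 0.0299), and it passed with all arrays and without replicate 1 of CBU-028, but not without any other array. Against control 11 of the 25 mitotic genes were lowered by 5-NA and 19 by CBU-028, against 10.9% and 7.09% of all genes. These cell cycle counts depended on single arrays: without replicate 1 of 5-NA, 4 replication genes were lower and 2 higher, with either control array left out 3 mitotic genes were higher and 5 replication genes lower and 2 higher, and with either EerI array left out 2 mitotic genes were higher and 5 replication genes lower. Without replicate 2 of 5-NA the 7 mitotic genes did not pass.

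Of 30 regulators of embryonic development 11 were higher and 3 lower with 5-NA, against 6.47% and 7.33% of all genes. This list was chosen with earlier results of these data known, so its excess over all genes may reflect that choice. The median was 0.20. IRX5, a homeobox gene, read 9.27 and 9.35 with 5-NA, 8.13 and 8.34 with CBU-028 and 8.58 and 8.49 in control cells. Control lay between the compounds, which differed by 1.08 ± 0.09 (adjusted p 0.000753). Against control, CBU-028 did not pass for IRX5 (-0.30). AXIN2, a feedback target of Wnt signalling, read 8.23 and 8.20 with 5-NA, 7.14 and 7.32 with CBU-028 and 7.97 and 7.94 in control cells (0.99 ± 0.09), and its 3 other probe sets gave 0.31, 0.07 and 0.08 and did not pass (adjusted p 0.0529 to 0.775). SOX2, a pluripotency and neural factor, was 0.69 higher with 5-NA and lay below control with both compounds. ID4, an inhibitor of helix-loop-helix factors, was 0.77 lower. Outside the list, the secreted Wnt antagonist DKK1 read 7.76 and 7.57 with 5-NA, 6.42 and 6.19 with CBU-028 and 7.28 and 7.23 in control cells (1.36 ± 0.11), and SHISA2, an ER protein that restrains Wnt and FGF receptors, read 8.37 and 8.15, 6.48 and 6.52, and 7.86 and 7.71 in the same order of groups (1.76 ± 0.10). For both genes CBU-028 was lowest.

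Of 15 sterol and lipid synthesis genes 3 were higher with 5-NA, against 6.47% of all genes higher and 7.33% lower. FASN, the fatty acid synthase, led them. Its brightest probe set read 12.16 and 12.16 with 5-NA, 11.30 and 11.37 with CBU-028 and 12.31 and 12.40 in control cells (0.83 ± 0.10, adjusted p 0.00195), and another FASN probe set gave -0.05. At the brightest FASN probe set the 5-NA arrays lay slightly below control and the CBU-028 arrays further below. INSIG1, which holds SREBP in the ER, was 0.44 higher, and without replicate 2 of 5-NA, where 1 gene of the list passed, it did not (0.42, adjusted p 0.0559). Without replicate 1 of CBU-028, 5 genes of the list were higher, with HMGCS1 (0.38, adjusted p 0.0375) and SQLE (0.44, adjusted p 0.0191), both enzymes of cholesterol synthesis, among them. Of 19 hypoxia-response genes 4 were higher and 3 lower, and the 4 were 2 without replicate 2 of 5-NA. The 3 lower ones did not pass without replicate 1 of 5-NA, and 1 passed with any control or EerI array left out. Of all 19, ADM, the vasodilator adrenomedullin, differed most and was higher with 5-NA by 0.91 ± 0.10. It read 11.69 and 11.73 with 5-NA, 10.72 and 10.87 with CBU-028 and 10.35 and 10.32 in control cells. VEGFA, which hypoxia and ATF4 both induce, did not pass at -0.23 (interval -0.41 to -0.06).

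Several of the genes with the largest differences lay outside the lists. PHLDA2, an imprinted growth-restraining gene, was higher with 5-NA by 1.53 ± 0.13, with 0.12 and 0.08 at its other probe sets. ETV5, an ETS factor downstream of FGF signalling, was higher by 1.44 ± 0.13 at its brightest probe set, while its 4 other probe sets gave 0.06 to 0.28 and did not pass. ZC3HAV1, an antiviral zinc finger protein, was higher by 1.39 ± 0.11 at its brightest probe set, by 1.17 (adjusted p 0.000615) at a second, and gave -0.02 at another. On the lower side, PHOSPHO2, a phosphatase, read 7.94 and 8.07 with 5-NA, 9.30 and 9.42 with CBU-028 and 9.09 and 9.001 in control cells (-1.36 ± 0.09, adjusted p 0.000403). DUS4L, a dihydrouridine synthase of tRNA, read 9.12 and 9.12 with 5-NA, 10.50 and 10.23 with CBU-028 and 9.66 and 9.70 in control cells (-1.25 ± 0.10). In PHOSPHO2 5-NA lay below both other groups, and in DUS4L control lay between the compounds. RAB39B, a small GTPase of vesicle traffic, overlapped control with 5-NA (6.81 and 6.82, against 6.74 and 6.89) and was higher with CBU-028 (8.03 and 7.94), a difference of -1.17 ± 0.09. The antisense transcripts SCAMP1-AS1 (-1.22) and TAF1A-AS1 (-1.12), and DET1 (-1.09), ZRANB3 (-1.09), TMEM42 (-1.08) and LOC374443 (-1.07), were lower as well, although further probe sets of ZRANB3 and LOC374443 gave -0.14 and 0.08 and did not pass. All 30 of the genes with the largest differences kept their calls under each of the 14 alternatives, as did 75 of the 113 named genes that passed.

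**Figure D5:**
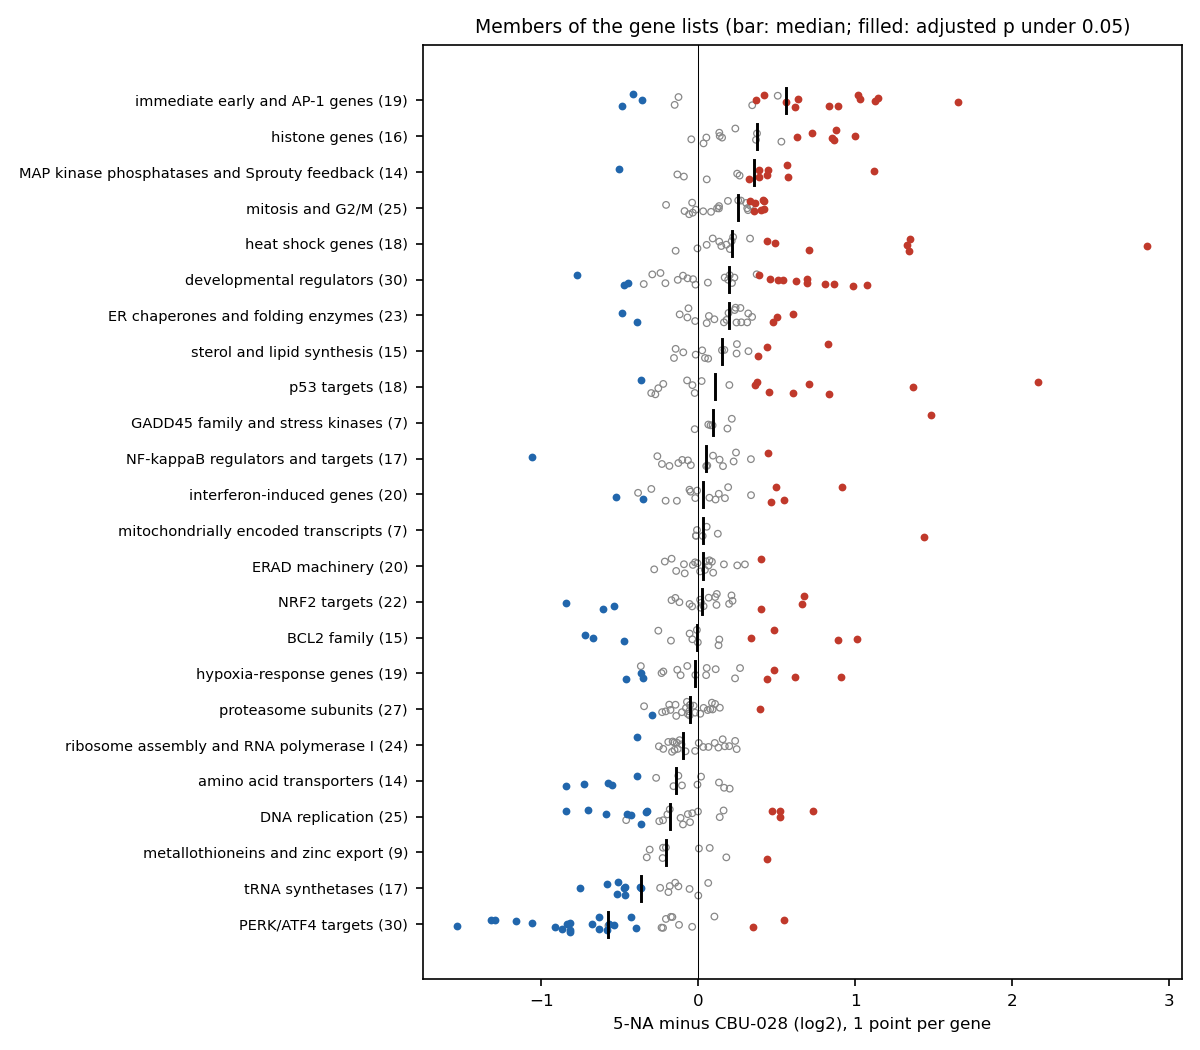
Difference between 5-NA and CBU-028 (horizontal axis, log2, 5-NA minus CBU-028) for the measured members of each gene list. Each point is 1 gene, filled where its adjusted p was below 0.05, and the bar is the median of the list, which lies furthest below 0 for the PERK/ATF4 targets (-0.58) and furthest above 0 for the immediate early genes (0.56).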

How the data were processed

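The 8 samples of 293T cells, 2 each with 5-NA, CBU-028, EerI or no named compound, were measured on Affymetrix arrays. The authors deposited log2 values per probe set, made by robust multi-array averaging (RMA). The submitters' processing notes also name Partek. The probe sets are those of HG-U133 Plus 2.0, although the methods give a smaller array of that family. The labels name an RNeasy kit for RNA, and the methods TRIzol followed by an RNeasy MinElute clean-up. Of 54675 probe sets, 41097 had a single gene symbol in the platform annotation, 1801 several and 11777 none. For each gene the brightest probe set, by its mean over the 8 arrays, was taken.

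The deposited values were used without further normalization. A linear model with the 4 groups was fitted to all probe sets with limma 3.58.1 in R 4.3.3 and moderated by eBayes (4 residual and 5.08 prior degrees of freedom), and p-values were adjusted by Benjamini-Hochberg over all probe sets. Only 1 pair of compounds was compared directly. The fit was tested on simulated data. Arrays give no read depth, and 2 arrays per group limit the precision, the median standard error being 0.099. A two-sided exact permutation test of 2 against 2 arrays cannot go below 0.333, so none is given.

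The genes named were the 15 with the largest difference each way among those past the adjusted p and 2-fold with no overlap of arrays, key genes of each list, up to 4 further members per list past the adjusted p and up to 2 that missed it. ATF5, CTH, DDB2, FGF21, GADD45A, H2BC12, ID4, PPP1R15A, PSPH, SOX2 and the second MAFF probe set fell outside this rule and were named after their values were seen. Members and gene lists were chosen with earlier results of these data known. The alternatives were the ANOVA of the methods, other thresholds and filters, other scalings, other samples in the fit, the replicate number as a block and each array left out. Array weights by group were added for list members and named genes after seeing the data. Single genes were run under 14 of these settings, not under all of them. The 30 genes with the largest differences were chosen by their size on these same arrays, which favours their keeping a call. Listed genes without a matching single-symbol probe set, such as HSPA1A, HSPA1B and SYVN1, were not analysed here.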

Additional observations from a re-analysis of the deposited data

Results flagged for a closer look

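For 11 of the named genes the compounds moved in opposite directions against control, each past an adjusted p below 0.05 in limma, and the difference between the compounds passed as well. Both changes use the same 2 control arrays. Of these, 7 lay above control with 5-NA and below it with CBU-028. SHISA2 differed from control by 0.48 with 5-NA and by -1.28 with CBU-028, a difference of 1.76 between the compounds. HSPA2 gave 1.12 and -0.61 (difference 1.73), and PHLDA2 gave 0.82 and -0.71 (1.53). ZC3HAV1 gave 0.67 and -0.72 (1.39), and DKK1 gave 0.41 and -0.95 (1.36). The early-response genes JUNB and IER5 gave 0.37 and -0.66 (1.03), and 0.41 and -0.48 (0.89). The other 4 lay below control with 5-NA and above it with CBU-028. DUS4L gave -0.56 and 0.69 (difference -1.25), DET1 -0.70 and 0.40 (-1.09), ZRANB3 -0.67 and 0.43 (-1.09), and RFC4, the clamp loader subunit, -0.51 and 0.33 (-0.84). PHLDA2 rests on a single probe set, its other probe sets giving 0.12 and 0.08, and of the other probe sets of ZC3HAV1 one gave 1.17 and another -0.02.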

How the results depend on the processing

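With all arrays 116 probe sets were at least 2-fold higher and 43 lower with 5-NA, and 3014 were higher and 2785 lower by adjusted p alone. A 1.5-fold threshold gave 925 and 671, and 1 probe set per gene, which tests fewer features, gave 59 and 18 at 2-fold and 1698 higher by adjusted p alone. By adjusted p alone, the ANOVA of the methods gave 5770 and 5936 unadjusted and 1271 and 1277 after Benjamini-Hochberg adjustment, the fit on the 4 compared arrays, with fewer samples, 1012 and 791, and weights by group 1507 and 1353. Leaving out 1 array in turn gave 116 to 151 probe sets at least 2-fold higher and 25 to 106 at least 2-fold lower, the lowest without replicate 1 and the highest without replicate 2 of CBU-028, and 1406 to 3260 higher and 1222 to 3907 lower by adjusted p alone. The cause was not tested. Of the 116 and 43, 87 and 35 were shared without replicate 1 of 5-NA, 100 and 26 without its replicate 2, and 95 and 23 without replicate 1 of CBU-028. Other scalings, floors on dim probe sets and the fit without EerI moved no count of these by over 1.5 times. On the 4 compared arrays 17 ATF4 targets and 2 tRNA synthetases were lower, and 5 heat shock, 8 immediate early and 6 histone genes were higher. Among named genes, 4 changed sign in 5 settings, none past the threshold where the sign changed, though DUSP6 and HES1 passed at their other extreme: COX3 (-0.025 to 0.13) and DUSP6 (-0.040 to 0.54), both lowest without replicate 1 of CBU-028, DNAJB4 (-0.058 without replicate 1 and 0.50 without replicate 2 of 5-NA, and -0.056 without replicate 2 of CBU-028), and HES1 (0.0585 without replicate 1 and -0.48 without replicate 2 of 5-NA).

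The replicate numbers of the titles gave 2 pairs, whose deviations correlated at 0.0759, and the samples share only a number. The fit with the replicate number as a block gave 116 and 42 probe sets at 2-fold, all shared, and 2770 and 2555 by adjusted p alone; it ended the call of PSMD4 (adjusted p 0.0581) and made that of MCM3 (0.0365).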

Other observations

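Classes of genes read from their symbols, chosen after the values were seen, differed in how often they passed. They were set against all genes without matching for signal level, which bears on how often a gene passes. Of 1829 genes whose symbols end in -AS or -DT or begin with LINC, and so denote antisense, divergent or intergenic non-coding transcripts, 101 were lower with 5-NA than with CBU-028 (5.52%) and 11 higher (0.601%), against 7.33% and 6.47% of all genes. Of 502 zinc finger genes with ZNF symbols, 67 were lower (13.3%) and 24 higher (4.78%), with a median of -0.07. Against control the median of the zinc finger genes was 0.05 with 5-NA and 0.13 with CBU-028.

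Across all genes, 30 were above control with 5-NA and below it with CBU-028, and 29 had the reverse order, each change past an adjusted p below 0.05 in limma against the same 2 control arrays. Replicate 2 of CBU-028 correlated at 0.9954 with each EerI array, at 0.9953 with replicate 1 of CBU-028, at 0.9934 and 0.9932 with the 5-NA arrays and at 0.9936 and 0.994 with the control arrays. Replicate 1 of CBU-028 correlated at 0.9943 and 0.995 with the EerI arrays, at 0.9932 and 0.9925 with the 5-NA arrays and at 0.9923 with each control array. These values are over all probe sets, which are not independent of each other.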
